A study of Homo sapiens with 12 samples.

Results

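The oxidative phosphorylation subunits described here are the genes whose symbols match the name patterns of the NDUFA, NDUFB, NDUFC, NDUFS and NDUFV families with a number, of SDHA to SDHD, and of the UQCR, COX4 to COX8 and ATP5 families. A probe set, the unit of measurement on the array, was kept when it had exactly 1 gene symbol, and the brightest was used where a gene had several, which gave 81 of the 18417 genes tested. By complex of the respiratory chain, 34 belonged to complex I, 3 to complex II, 8 to complex III, 17 to complex IV and 19 to complex V. They were measured in AsPC1 and BxPC3, human lines of pancreatic ductal adenocarcinoma, and in 1 cisplatin-resistant derivative of each line, on 3 Affymetrix arrays per group. AsPC1 and BxPC3 are the parental lines, grown in RPMI medium with serum and without cisplatin, a platinum compound that forms adducts and crosslinks in DNA. The medium of the derivatives held cisplatin, at 1.67 µM for AsPC1-R and at 0.60 µM for BxPC3-R, and the last subculture before harvest was free of it, so the groups differ in history and not in drug at harvest. The labels do not say whether the 3 samples of a group were separate cultures, so every p-value is set against a spread between samples that may be technical. With 1 derivative per line, the effect of resistance and that of any other change during its derivation cannot be told apart.

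Oxidative phosphorylation makes ATP in the inner mitochondrial membrane. Complex I takes electrons from NADH and complex II from succinate, ubiquinone carries them to complex III and cytochrome c to complex IV, which reduces oxygen, and the proton gradient that complexes I, III and IV build drives the ATP synthase, complex V. Most subunits are encoded in the nucleus, in genes on nearly every chromosome, and are imported, while a few core subunits are encoded in mitochondrial DNA. The nuclear factors NRF1 and GABP (an ETS protein whose DNA-binding subunit is GABPA) and coactivators such as PPARGC1A are known for driving many of these genes together.

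Of the 81 genes, 78 are protein coding. The name patterns also caught the lncRNA NDUFV1-DT, which starts beside NDUFV1, and the pseudogenes ATP5F1EP2 and UQCRBP1. They also caught ATP5IF1, the inhibitor protein of the ATP synthase, ATP5MGL, a paralog of ATP5MG, and COX7A2L, a factor that joins complexes III and IV into supercomplexes. A further 9 probe sets of these families carried several symbols and were not used, and SDHB, UQCRFS1 and NDUFA4 were not analysed here. All levels are log2 values, and 73 of the 81 genes reached 6.554, the median of all values, in at least 1 group and are called expressed. Another 6 (ATP5MGL, COX6B2, COX7A1, COX7B2, COX8C and NDUFV1-DT) had no group mean above 6.22, the level of CDKN2A in BxPC3, a line known to have lost that gene. SMAD4, also listed as deleted in BxPC3, stood lower there, at 4.7. Of these 6 genes only COX7B2 lay under that level in every group.

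As labelled, the cells carried ductal epithelial markers: 8 of 8 genes of that list lay above 6.22, EPCAM at 12.43 or higher in every group. The leukocyte gene PTPRC had means of 3.19 to 3.27, and the fibroblast gene DCN 3.83 to 4.1. Single genes of other lists were high, LUM at 11.55 in AsPC1, and LAPTM5 at 12.44 and CDH5 at 9.34 in BxPC3. By their highest group mean, 2 of 4 leukocyte, 4 of 6 fibroblast and 2 of 4 endothelial genes were above 6.22. So were 2 of 4 genes of the acinar and endocrine pancreas. CDH5 stood at 6.67 in BxPC3-R. The part of these genes' sources in the results was not tested, and in RNA from whole cultures a change in the mix of cells and one within cells cannot be told apart. Among the BxPC3 arrays, replicate 2 stood apart: the 50 genes by which AsPC1 exceeded BxPC3-R the most all had their highest BxPC3 level on it. It had the highest level of the 3 BxPC3 arrays for 38 of the 81 subunit genes and the lowest for 20. Counts of subunit genes that rest on BxPC3 are therefore also given without it. Calls of subunit genes and other pathway genes in BxPC3-R that were lost without it are named.

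In BxPC3-R a minority of the subunit genes fell, by small amounts, and how many did depended on single arrays. The test was limma's moderated test with p-values adjusted over all 18417 genes, here and below, and only genes with an adjusted p under 0.05 are described as rising or falling. On that basis 14 of the 81 genes fell (17.3%) and 1 rose (1.23%), beside 11.0% of all genes tested that fell and 9.75% that rose. The log2 change was below 0 for 63 of the 81, with a median of -0.13 against 0.02 over all genes. Among expressed genes only, 14 of 73 fell, beside a background of 14.7%. By complex, 6 of 34 genes fell in complex I, 1 of 3 in complex II, 2 of 8 in complex III, 4 of 17 in complex IV and 1 of 19 in complex V. The count of genes that fell dropped to 7 without BxPC3 replicate 2, 9 without BxPC3 replicate 3, 5 without BxPC3-R replicate 1 and 8 without BxPC3-R replicate 2. These are 8.64%, 11.1%, 6.17% and 9.88% of the 81, beside 8.7%, 9.52%, 8.92% and 8.76% of all genes in the same fits. Without any of these 4 arrays the share of subunit genes that fell thus lay near the background, and without BxPC3-R replicate 1 under it. With any other single array left out, 12 to 19 genes fell (14.8% to 23.5%), beside 9.44% to 12.1% of all genes.

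**Figure D1:**
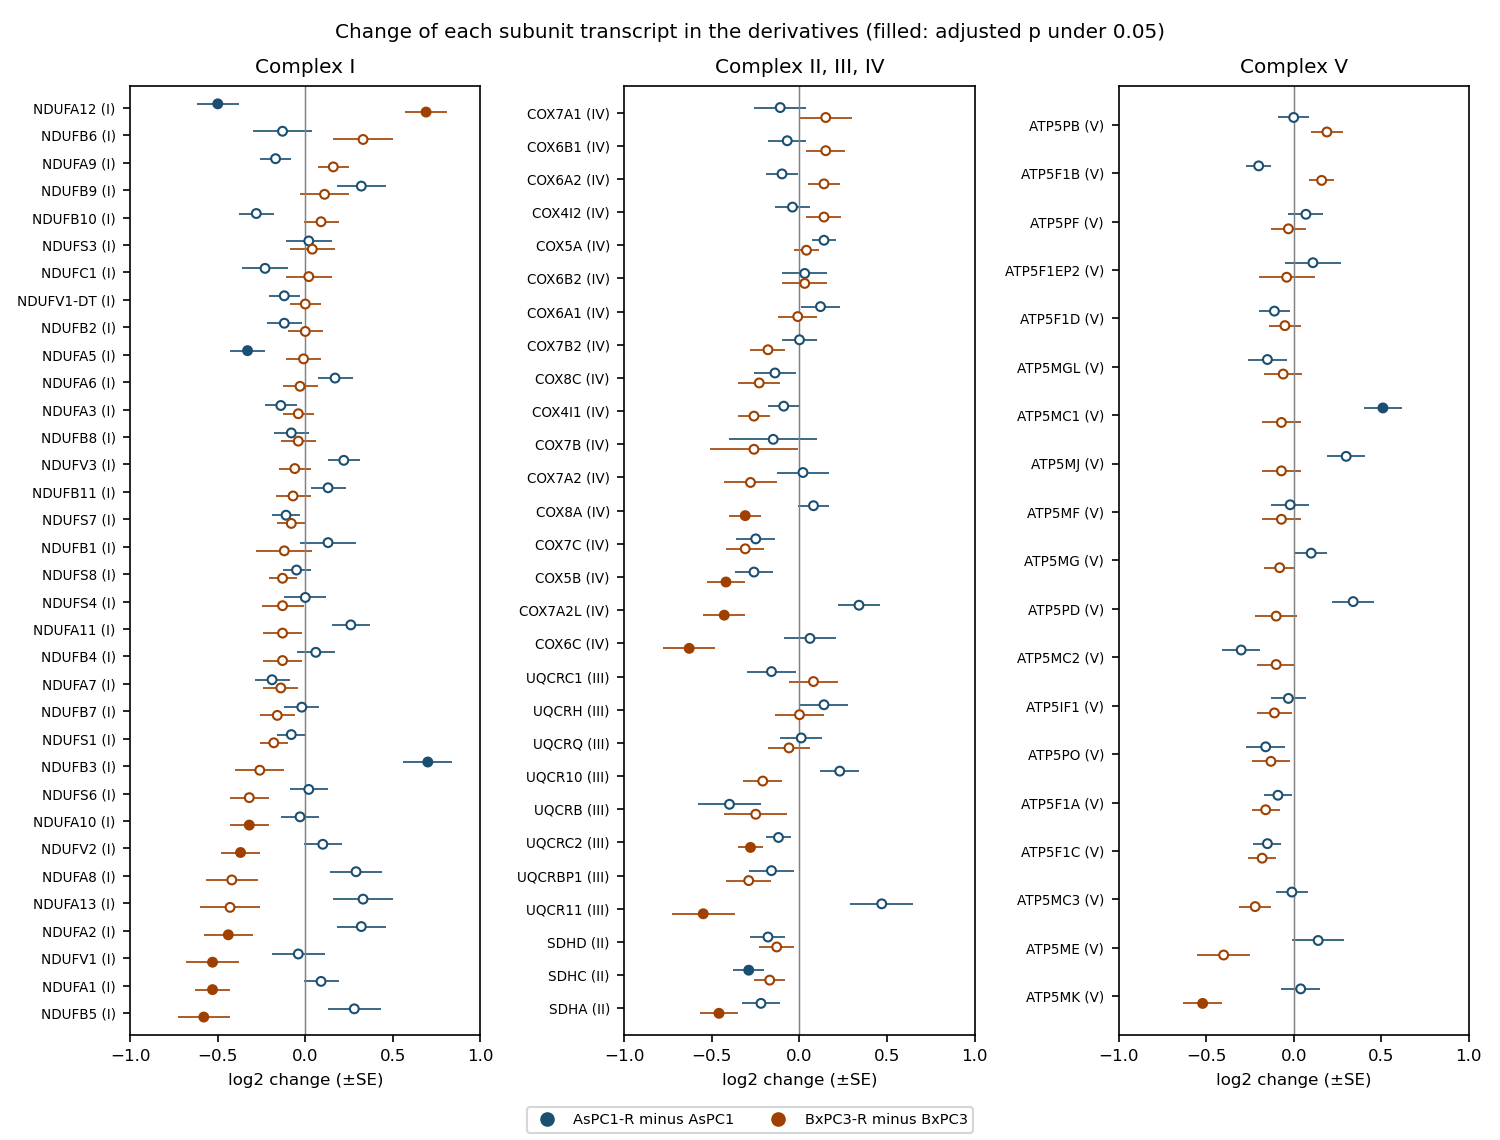
Log2 change (x axis) of each of the 81 genes (y axis, by complex) in AsPC1-R against AsPC1 (blue) and in BxPC3-R against BxPC3 (orange), with standard errors and 3 arrays per group. Filled points had an adjusted p under 0.05, and the orange ones lie at negative changes in 14 genes and at a positive change in 1, NDUFA12.

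In complex I the genes that fell in BxPC3-R included NDUFV1 and NDUFV2, core subunits of the arm that oxidises NADH. NDUFV1, which binds NADH and its flavin, read 9.95, 10.25 and 10.18 in BxPC3 and 9.49, 9.59 and 9.69 in BxPC3-R. All 3 derivative arrays lay under all 3 parental ones, a change of -0.53 (SE 0.15, adjusted p 0.02). NDUFV2, its iron-sulfur partner, changed by -0.37 (SE 0.11, adjusted p 0.0322). Its second probe set showed the same difference of -0.37, and whether both probe sets are independent readings was not tested. Both calls were lost without BxPC3 replicate 2, BxPC3 replicate 3, BxPC3-R replicate 1 or BxPC3-R replicate 2, and that of NDUFV2 also when arrays were centred on their medians. The core iron-sulfur subunits NDUFS1 (-0.18, adjusted p 0.169) and NDUFS8 (-0.13, adjusted p 0.271) did not pass the test.

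The other complex I genes that fell encode accessory subunits, which surround the catalytic core. NDUFA1, a membrane-arm subunit encoded on chromosome X, read 12.02, 11.93 and 11.90 in BxPC3 and 11.30, 11.48 and 11.47 in BxPC3-R. The groups did not overlap, the change was -0.53 (SE 0.10, adjusted p 0.00195), and the call was kept whichever array was left out. NDUFB5, also of the membrane arm, read 11.09, 11.04 and 11.12 against 10.30, 10.47 and 10.74 in the derivative, again without overlap (-0.58, SE 0.15, adjusted p 0.0104). Its call was lost without BxPC3-R replicate 1. NDUFA2 (-0.44, adjusted p 0.0433) and NDUFA10 (-0.32, adjusted p 0.0458) passed narrowly. Each call was lost when any of 7 arrays was left out, BxPC3 replicate 2 among them, and when arrays were centred on their medians.

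In complex II, SDHA, the flavoprotein that oxidises succinate, read 11.34, 11.53 and 11.54 in BxPC3 and 11.04, 10.92 and 11.06 in BxPC3-R. The groups were apart, with a change of -0.46 (SE 0.11, adjusted p 0.0066) that was called in every alternative tried. SDHA has near-identical pseudogenes, whose transcripts its probe set may also read. The membrane anchors SDHC (-0.17, adjusted p 0.234) and SDHD did not pass.

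In complex III, UQCRC2, a core subunit of the matrix side, gave tight readings of 12.32, 12.30 and 12.31 in BxPC3 and 12.02, 12.06 and 12.01 in BxPC3-R. Its change of -0.28 (SE 0.07, adjusted p 0.0109) was the smallest that passed in this derivative, and it passed in every alternative tried. UQCR11, a small subunit, changed by -0.55 (SE 0.18, adjusted p 0.0422). Its call was lost when any of 8 arrays was left out, BxPC3 replicate 2 among them, with arrays centred and after a further quantile normalization. UQCRC1, the other core subunit, differed by 0.08 (adjusted p 0.779).

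In complex IV, COX6C, a small nuclear-encoded subunit, read 10.77, 10.83 and 11.10 in BxPC3 and 10.08, 10.31 and 10.42 in BxPC3-R. No derivative array reached a parental one, and the change of -0.63 (SE 0.15, adjusted p 0.0086), a 1.55-fold drop, was the largest fall among the 81 genes. COX7A2L, the supercomplex factor, read 8.94, 9.17 and 9.03 against 8.51, 8.69 and 8.65 (-0.43, SE 0.12, adjusted p 0.0172), also without overlap. COX5B, a subunit that binds zinc, fell by 0.42 (adjusted p 0.016) and COX8A by 0.31 (adjusted p 0.0267). Calls were lost without BxPC3-R replicate 1 for COX7A2L, COX5B and COX8A, without BxPC3 replicate 2 for COX7A2L and COX8A, without BxPC3-R replicate 2 for COX5B and without BxPC3-R replicate 3 for COX8A. COX4I1 (-0.26, adjusted p 0.0681) and COX5A (0.04, adjusted p 0.809), which bind to the mitochondrially encoded core, did not pass.

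In complex V a single gene fell. ATP5MK, a small membrane subunit also known as DAPIT, read 10.62, 10.81 and 10.82 in BxPC3 and 10.11, 10.27 and 10.31 in BxPC3-R. The groups did not overlap (-0.52, SE 0.11, adjusted p 0.00446), but its second probe set differed by -0.24, and the call was lost when both were averaged. The catalytic and stalk genes ATP5F1A (-0.16), ATP5F1B (0.16), ATP5F1C (-0.18) and ATP5PB (0.19) did not pass, and 17 of the 19 complex V genes had a change below 0.

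**Figure D2:**
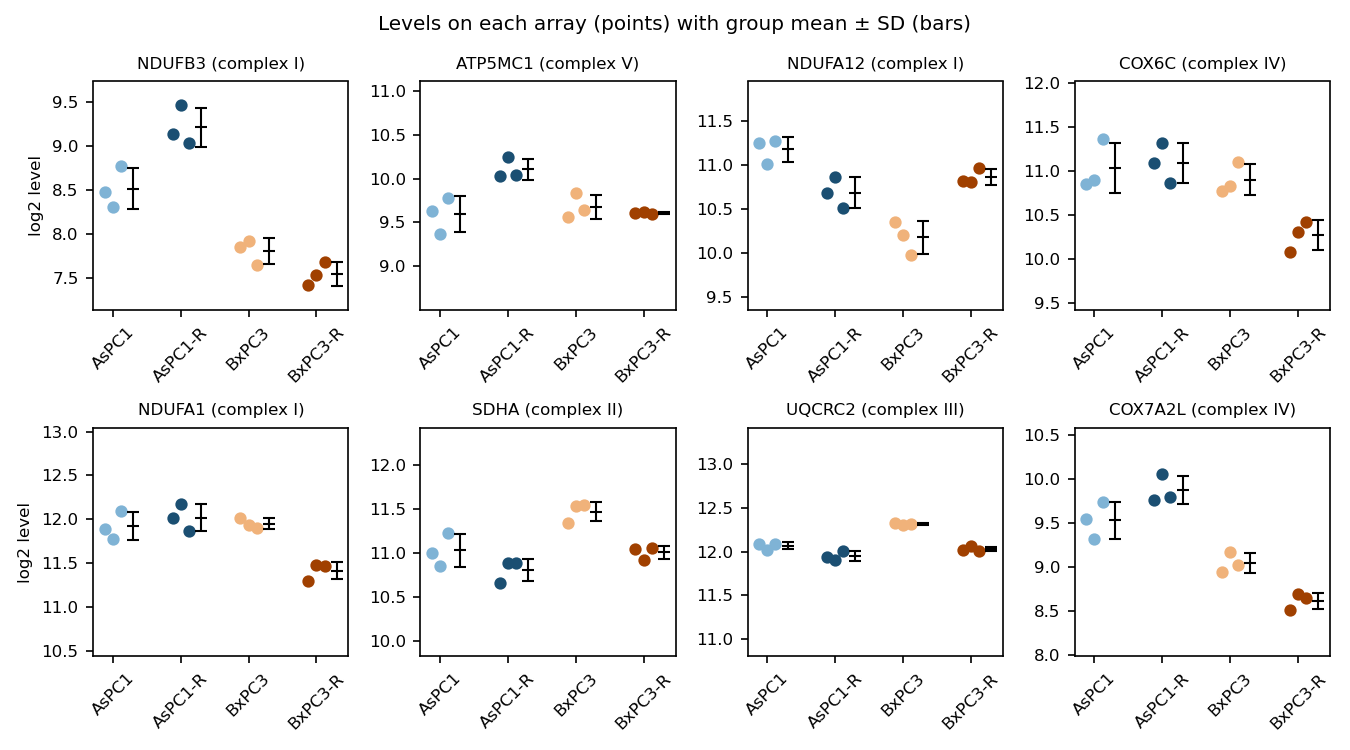
Log2 level on each array (points, y axis) in the 4 groups (x axis), with group mean and SD (bars, n = 3), for 8 of the subunit genes on axes of equal span. BxPC3-R lies under BxPC3 without overlap for COX6C, NDUFA1, SDHA, UQCRC2 and COX7A2L and above it for NDUFA12, while AsPC1-R lies above AsPC1 for NDUFB3 and ATP5MC1.

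The promoters of 4 of these genes are shown because NRF1 and ETS motifs are known from many respiratory genes, and because SDHA, NDUFA1 and UQCR11 fell while NDUFA12 rose in the same cells. Each run is the 250 bases before the RefSeq start (GRCh38.p14), read 5′ to 3′ on the gene's strand. Capitals mark matches on either strand to the NRF1 motif or to the ETS motif CCGGAAG. SDHA lies at chr5:218070-218319 on the plus strand and has 4 NRF1 matches. NDUFA12 lies at chr12:95003698-95003947 on the minus strand and has 1 NRF1 match. UQCR11 lies at chr19:1605463-1605712 on the minus strand and has 2 NRF1 and 2 ETS matches. NDUFA1 lies at chrX:119871582-119871831 on the plus strand and has 1 ETS match.
SDHA: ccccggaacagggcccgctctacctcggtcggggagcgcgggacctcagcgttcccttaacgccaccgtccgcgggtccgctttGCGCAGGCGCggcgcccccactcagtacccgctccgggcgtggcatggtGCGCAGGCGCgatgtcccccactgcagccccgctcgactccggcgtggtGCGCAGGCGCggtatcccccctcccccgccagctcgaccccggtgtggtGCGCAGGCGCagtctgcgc
NDUFA12: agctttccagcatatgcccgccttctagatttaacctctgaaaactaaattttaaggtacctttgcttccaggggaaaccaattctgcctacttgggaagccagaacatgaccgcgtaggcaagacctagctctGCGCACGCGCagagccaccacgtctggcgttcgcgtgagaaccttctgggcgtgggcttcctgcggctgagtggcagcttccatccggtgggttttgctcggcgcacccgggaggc
UQCR11: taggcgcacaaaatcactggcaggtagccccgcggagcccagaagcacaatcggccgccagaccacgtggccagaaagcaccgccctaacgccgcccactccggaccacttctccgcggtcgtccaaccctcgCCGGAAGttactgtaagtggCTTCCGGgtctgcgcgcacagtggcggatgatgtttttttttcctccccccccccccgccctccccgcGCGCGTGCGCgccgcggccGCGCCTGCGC
NDUFA1: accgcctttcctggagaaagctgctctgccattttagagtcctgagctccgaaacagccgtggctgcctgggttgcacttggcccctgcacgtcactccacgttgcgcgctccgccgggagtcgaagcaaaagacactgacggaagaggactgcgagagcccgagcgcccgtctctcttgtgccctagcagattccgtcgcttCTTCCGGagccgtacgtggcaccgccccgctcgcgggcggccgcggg

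A RefSeq promoter was found for 67 of the 81 genes. The NRF1 motif was present in 14 of them (20.9%), against 8.72% of the 15842 protein-coding genes with an entry. The ETS motif was present in 17 (25.4%), against 2214 of those 15842 genes. The YY1 motif AAGATGG, searched likewise on both strands, was present in 5 (7.46%) against 4.34%. Any of these motifs was present in 32 of the 67 genes, and both the NRF1 and the ETS motif in 2. The 4 promoters printed all hold a match and so do not stand for the 67. UQCRC2, which also fell in BxPC3-R, held none of the motifs. No printed match of one motif overlaps a match of another. Of the 12 genes with an entry that fell in BxPC3-R, 2 held the NRF1 motif, 5 the ETS motif and 0 the YY1 motif. A match is a string of letters and was not tested as a site.

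In AsPC1-R, few subunit genes differed from AsPC1. Of the 81, 2 rose and 3 fell (6.17%), beside 20.3% of all genes tested, of which 11.6% rose and 8.64% fell, and 27.4% of expressed genes. The median change was -0.02, against -0.05 over all genes, and 20 of the 81 (24.7%) had an unadjusted p under 0.05, beside 31.7% of all genes. The changes called were 1 rise and 2 falls in complex I, 1 fall in complex II and 1 rise in complex V, with none in complexes III and IV. Leaving out AsPC1 replicate 3 gave 9 that rose (11.1%, beside 12.6% of all genes in that fit), and leaving out AsPC1-R replicate 3 gave 4 (4.94%, beside 9.95%). The number that fell was 1 without AsPC1 replicate 1 (1.23%, beside 7.07% of all genes), 5 without AsPC1 replicate 2 (6.17%, beside 7.19%) and 1 without AsPC1-R replicate 3 (1.23%, beside 6.68%).

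NDUFB3, an accessory subunit of the complex I membrane arm, rose the most. It read 8.47, 8.30 and 8.77 in AsPC1 and 9.14, 9.46 and 9.03 in AsPC1-R. The derivative arrays all lay above the parental ones, a change of 0.70 (SE 0.14, adjusted p 0.00223) or 1.63-fold. In BxPC3-R the same gene differed by -0.26 (adjusted p 0.227), with overlapping groups.

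ATP5MC1 encodes the membrane c subunit whose ring turns in the ATP synthase, a protein also made from ATP5MC2 and ATP5MC3. It read 9.63, 9.37 and 9.78 in AsPC1 and 10.03, 10.24 and 10.04 in AsPC1-R, without overlap (0.51, SE 0.11, adjusted p 0.00456). ATP5MC2 had a change of opposite sign that did not pass (-0.30, SE 0.11, adjusted p 0.0785), and ATP5MC3 differed by -0.01.

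NDUFA12, an accessory subunit that joins complex I late in its assembly, read 11.25, 11.01 and 11.27 in AsPC1 and 10.68, 10.86 and 10.51 in AsPC1-R. The groups did not overlap and the fall was 0.50 on the log2 scale (SE 0.12, adjusted p 0.00785). NDUFB3, ATP5MC1 and NDUFA12 kept their calls in every alternative tried. NDUFA5, an accessory subunit of the peripheral arm (-0.33, SE 0.10, adjusted p 0.0296), and SDHC (-0.29, SE 0.09, adjusted p 0.0334) each lost theirs when any of 4 arrays was left out. The second probe set of SDHC differed by -0.15, and the call of SDHC was lost when both were averaged.

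All measured changes in both derivatives were small. The 95% interval of the change lay within 2-fold in either direction for all 81 genes in AsPC1-R and in BxPC3-R. It lay within 1.5-fold for 68 genes in AsPC1-R and for 62 in BxPC3-R. The 81 include 8 genes not called expressed, and at low levels changes are compressed. For these 8 a narrow interval does not show that the change was small. For the core subunit NDUFS1, for example, the interval ran from -0.26 to 0.10 in AsPC1-R and from -0.36 to 0.00 in BxPC3-R.

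Subunit genes also moved together between arrays of one group. As the mean over the 81 genes of each level minus the gene's mean over all arrays, the AsPC1 arrays stood at 0.094, -0.04 and 0.204 and the AsPC1-R arrays at 0.025, 0.236 and 0.001. The BxPC3 arrays lay close together at -0.036, 0.004 and -0.02, and the BxPC3-R arrays at -0.214, -0.154 and -0.10. The BxPC3-R arrays were thus the lowest of the 12, and AsPC1 and AsPC1-R overlapped. Over all genes tested, where quantile normalization holds it near 0, the same measure ranged from -0.031 to 0.029. Over the 12328 expressed genes it ranged from -0.056 to 0.07. Each of the 5 complexes had AsPC1 replicate 3 and AsPC1-R replicate 2 as the highest arrays of their groups. The part of this shared spread in the counts above was not tested.

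**Figure D3:**
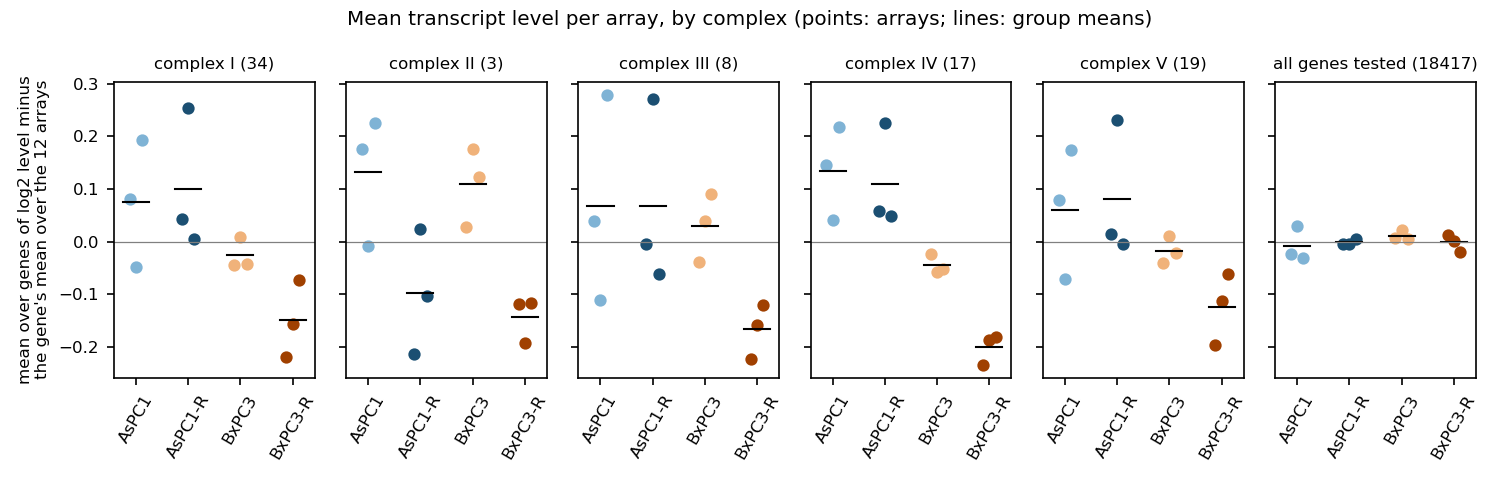
Mean over the genes of each complex, and over all 18417 genes tested, of the log2 level minus the gene's mean over the 12 arrays (y axis), for each array (points) in the 4 groups (x axis), with group means as lines. In complexes I, III and IV the 3 BxPC3-R arrays lie under all 9 other arrays, and AsPC1 replicate 3 and AsPC1-R replicate 2 are high.

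The question whether both derivatives changed alike was put to the difference between the lines, that is the change in AsPC1-R minus the change in BxPC3-R. It passed the test in 16 of the 81 genes (19.8%), above 0 in 14 and below 0 in 2, beside 25.4% of all genes tested. By direction, 17.3% of the members and 14.1% of all genes passed above 0, and 2.47% and 11.3% below 0. The 14 lay in complex I (NDUFB3, NDUFB5, NDUFA13, NDUFA2, NDUFA8, NDUFA1 and NDUFV2), complex III (UQCR11 and UQCR10), complex IV (COX7A2L, COX6C and COX8A) and complex V (ATP5MC1 and ATP5MK). The number above 0 was 7 (8.64%) without AsPC1-R replicate 2 or without BxPC3-R replicate 1, beside 12.7% and 12.3% of all genes in those fits. It was 9 (11.1%) without AsPC1 replicate 1, BxPC3 replicate 2 or BxPC3 replicate 3, beside 12.8%, 12.2% and 12.8%. With any 1 of these arrays left out, the share of members above 0 thus lay under the background. Among expressed genes 19.2% of the members and 19.1% of all genes passed above 0. The number below 0 was 4 (4.94%, beside 13.7% of all genes) without AsPC1 replicate 3 and 3 (3.7%, beside 10.5%) without BxPC3 replicate 2.

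The largest such difference above 0 was that of UQCR11, which read 7.87, 7.51 and 8.37 in AsPC1, 8.21, 8.70 and 8.25 in AsPC1-R, 8.08, 8.23 and 8.25 in BxPC3 and 7.57, 7.56 and 7.76 in BxPC3-R. AsPC1-R overlapped its parent and BxPC3-R lay under its own, and the difference was 1.03 (SE 0.25, adjusted p 0.0084). For COX7A2L the change was 0.34 in AsPC1-R (adjusted p 0.0555) and -0.43 in BxPC3-R, a difference of 0.77 (SE 0.17, adjusted p 0.00333). NDUFA13, also known as GRIM-19, passed for the difference alone (0.77, SE 0.24, adjusted p 0.0283), with changes of 0.33 (adjusted p 0.191) and -0.43 (adjusted p 0.0891). NDUFA8 did likewise (0.70, adjusted p 0.0228). The call of NDUFA13 was lost when any of 7 arrays was left out and that of NDUFA8 when any of 3 was. BxPC3 replicate 2 was among them in both cases, and without it the differences were 0.69 (adjusted p 0.0685) for NDUFA13 and 0.65 (adjusted p 0.0542) for NDUFA8. Without that array NDUFV2 (adjusted p 0.0831), UQCR10 (adjusted p 0.108) and COX8A (adjusted p 0.0985) also lost their calls for the difference.

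Below 0 the difference passed for NDUFA12 and for ATP5F1B, the catalytic beta subunit of the ATP synthase. ATP5F1B read 13.07, 12.99 and 13.06 in AsPC1, 12.81, 12.84 and 12.86 in AsPC1-R, 13.10, 13.07 and 13.09 in BxPC3 and 13.26, 13.21 and 13.28 in BxPC3-R. Each derivative lay apart from its parent, lower in AsPC1-R (-0.20, adjusted p 0.0521) and higher in BxPC3-R (0.16, adjusted p 0.125), and the difference was -0.37 (SE 0.10, adjusted p 0.0129).

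Across the 81 genes the changes in both derivatives had the same sign in 35, and 32 were above 0 in AsPC1-R and below 0 in BxPC3-R. Pearson's r between the changes was -0.33 and Spearman's rho -0.22, a description over 81 genes that share arrays and are not independent. NDUFA12 was the only gene called in both derivatives, in opposite directions. BxPC3-R had the lowest mean of the 4 groups for 46 of the 81 genes (56.8%), against 26.6% of all genes tested.

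**Figure D4:**
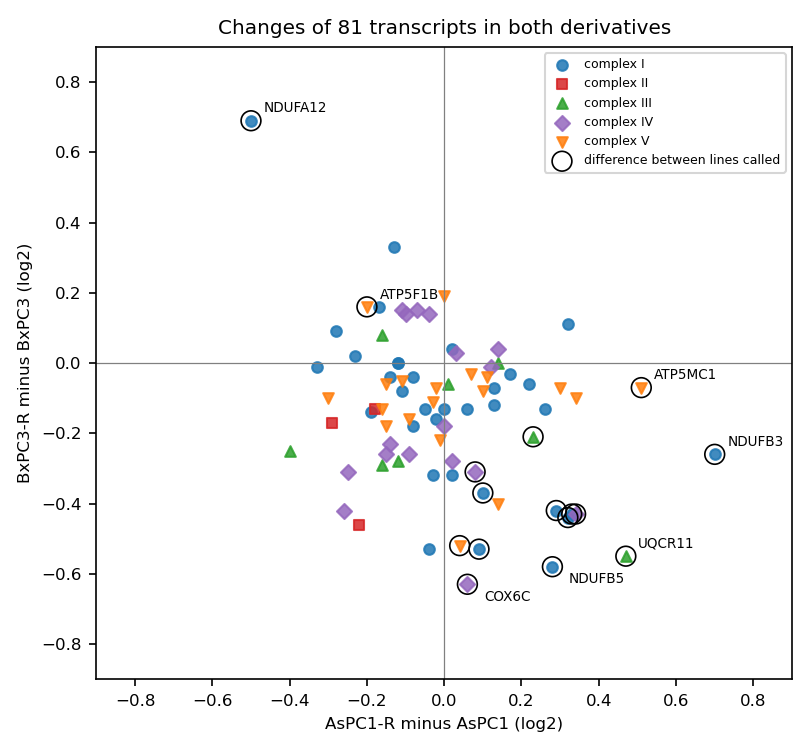
Log2 change in AsPC1-R (x axis) against that in BxPC3-R (y axis) for the 81 genes, with the complex as symbol and a ring around the 16 whose difference between the lines had an adjusted p under 0.05. Rings on the lower right are higher in AsPC1-R and lower in BxPC3-R. NDUFA12 lies farthest to the upper left, at -0.50 and 0.69, among 14 genes in that quadrant.

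NDUFA12 read 10.35, 10.20 and 9.98 in BxPC3 and 10.82, 10.81 and 10.97 in BxPC3-R. All derivative arrays were above the parental ones, a rise of 0.69 (SE 0.12, adjusted p 0.000674), and the difference between the lines was -1.19 (SE 0.17, adjusted p 0.000115). The parents themselves differed by 1.01 (SE 0.12, adjusted p 6.35e-06), AsPC1 being higher, whereas the derivatives overlapped (-0.18, adjusted p 0.251). Its neighbours on chromosome 12 were examined because NDUFA12 alone in its complex rose in BxPC3-R, a choice made after its values were seen. Of the 10 tested genes nearest to it, 5 on each side, 5 fell and 1 rose in AsPC1-R, and 7 rose and 0 fell in BxPC3-R. RN7SL737P, CRADD, TMCC3, NR2C1 and METAP2 fell in AsPC1-R and rose in BxPC3-R as NDUFA12 did. For TMCC3 the changes were -0.41 (adjusted p 0.0046) and 0.56 (adjusted p 0.000386), and for METAP2 -0.36 (adjusted p 0.0115) and 0.58 (adjusted p 0.000341). SOCS2 (0.92) and VEZT (0.38) rose in BxPC3-R alone, and FGD6 rose in AsPC1-R (0.40).

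Over the whole of chromosome 12 the median change was -0.12 in AsPC1-R and 0.13 in BxPC3-R for 982 tested genes, and -0.20 and 0.16 for the 5 subunit genes there (NDUFA12, NDUFA9, COX6A1, ATP5F1B and ATP5MC2). The median change of the 10 neighbours correlated with the gene's own change across the 81 genes at r 0.22 in AsPC1-R and 0.24 in BxPC3-R, and at 0.19 and 0.06 without NDUFA12, a description with no test. COX5A is a case without such a likeness: 8 of its 10 neighbours rose in AsPC1-R with a median of 0.48, while COX5A read 11.84, 11.71 and 11.80 in AsPC1 and 11.92, 11.97 and 11.88 in AsPC1-R (0.14, adjusted p 0.223). DNA copy number was not measured here, and its part in these changes was not tested.

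**Figure D5:**
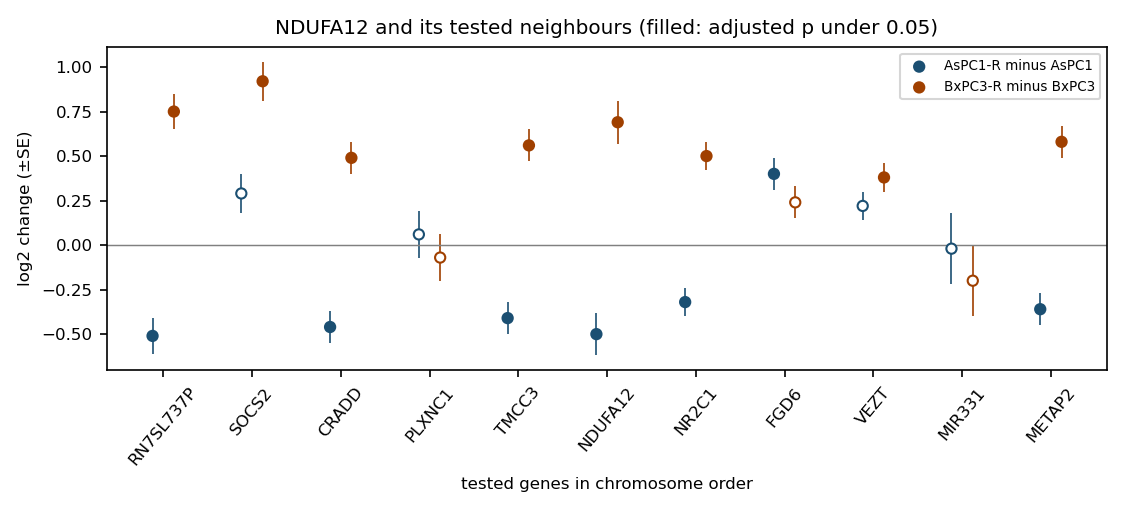
Log2 change with standard error (y axis) of NDUFA12 and of the 5 tested genes on each side of it, in order along chromosome 12 (x axis), for AsPC1-R (blue) and BxPC3-R (orange). Filled points had an adjusted p under 0.05, and 7 of the 10 neighbours rose in BxPC3-R while 5 fell in AsPC1-R.

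Between the parental lines many subunit genes differed, as did many genes in general. Of the 81, 23 were higher and 12 lower in AsPC1 than in BxPC3 (43.2%), beside 50.6% of all genes tested (27.7% higher and 22.9% lower). Without BxPC3 replicate 2 the counts were 21 (25.9%) and 9 (11.1%), beside 21.7% and 20.2% of all genes in that fit. The largest differences after NDUFA12 were in NDUFA8, a disulfide-rich complex I subunit that was lower in AsPC1 (-0.94, SE 0.15, adjusted p 0.000107), and ATP5MC2, which was higher (0.83, SE 0.11, adjusted p 3.14e-05). NDUFA8 read 8.63, 8.38 and 8.97 in AsPC1 and 9.48, 9.70 and 9.61 in BxPC3, without overlap. NDUFB10 (0.78), COX5B (0.76), NDUFB2 (0.74), NDUFB6 (0.73), UQCRQ (0.73) and NDUFB3 (0.71) were also higher in AsPC1. ATP5MF, a membrane subunit of the ATP synthase (-0.38), COX4I1 (-0.36), SDHA (-0.44) and NDUFV2 (-0.51) were lower.

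Between the derivatives, 31 of the 81 genes were higher and 6 lower in AsPC1-R than in BxPC3-R (45.7%), beside 43.3% of all genes tested (21.3% higher and 22.0% lower). The median difference was 0.21, against 0.03 over all genes. The number lower was 3 (3.7%, beside 20.1% of all genes) without AsPC1-R replicate 3 or without BxPC3-R replicate 2. It was 4 (4.94%) without AsPC1-R replicate 1 or without BxPC3-R replicate 3, beside 3680 and 3679 of the 18417 genes. In these fits, in the order named, 33, 30, 30 and 32 subunit genes were higher. These are 40.7%, 37.0%, 37.0% and 39.5%, beside 19.1%, 18.8%, 19.2% and 18.8% of all genes. Without AsPC1-R replicate 2 the number higher was 27 (33.3%, beside 19.3%). NDUFB3 differed the most, at 7.41, 7.53 and 7.68 in BxPC3-R against 9.03 to 9.46 in AsPC1-R, a 3.18-fold difference (log2 1.67, SE 0.14, adjusted p 1.82e-07). COX7A2L (1.26), NDUFA2 (1.25), ATP5MK (0.96), COX5B (0.92), COX6C (0.82) and UQCRQ (0.80) followed. The 6 lower ones were ATP5PB, of the peripheral stalk of the ATP synthase (-0.53), NDUFA9 (-0.52), ATP5F1B (-0.41), UQCRC1 (-0.40), ATP5MF (-0.34) and NDUFA5 (-0.28). These comparisons share arrays with those of the derivatives against their parents, so their counts are not independent.

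Complex IV has isoforms that are typical of muscle, lung, testis or other tissues, and none of the 6 on the array (COX4I2, COX6A2, COX6B2, COX7A1, COX7B2 and COX8C) passed the test in either derivative. COX7B2 stayed at 3.98 or under and COX6B2 at 5.43 or under in every group mean, while COX6A2, a form of heart and skeletal muscle, had means of 7.25 to 7.56. COX4I2 had means of 6.38 ± 0.03 (SD, n = 3) in AsPC1, 6.35 ± 0.13 in AsPC1-R, 5.95 ± 0.20 in BxPC3 and 6.09 ± 0.03 in BxPC3-R. Both BxPC3 groups lay under 6.22 and both AsPC1 groups just above it. The common forms COX6A1, COX6B1, COX7A2 and COX7B did not pass in either derivative, and COX7B had the widest spread of all 81 genes in AsPC1, at 10.50, 9.58 and 10.70.

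Other genes of the pathway were counted from lists of assembly factors, regulators, tricarboxylic acid cycle enzymes and carriers, 95 genes in all. In AsPC1-R 14 rose and 10 fell, and in BxPC3-R 7 rose and 10 fell, with medians of 0.04 and -0.04. These are 14.7% and 10.5% in AsPC1-R, beside 11.6% and 8.64% of all genes, and 7.37% and 10.5% in BxPC3-R, beside 9.75% and 11.0%. The shares lie near the background, so the genes below are given for their own values only. CYC1, the cytochrome c1 subunit of complex III that the name patterns miss, read 8.68, 8.99 and 8.93 in BxPC3 and 8.30, 8.23 and 8.49 in BxPC3-R, a fall without overlap (-0.53, SE 0.15, adjusted p 0.0183). Without BxPC3 replicate 2 that call was lost (adjusted p 0.0728). CYCS, which encodes cytochrome c, and the complex I subunit NDUFAB1 did not pass in either derivative.

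Among assembly factors of complex I, TIMMDC1 (0.55), DMAC1 (0.45) and NDUFAF7 (0.34) rose in AsPC1-R, 3 of 16. In BxPC3-R, COA1 (-0.61) and NDUFAF7 (-0.30) fell and NDUFAF6 rose (0.56). Without BxPC3 replicate 2 NDUFAF7 lost that call (adjusted p 0.119). Of the 9 genes for assembly of complexes II and III, SDHAF2 (0.41), LYRM7 (0.42) and UQCC1 (0.37) rose in AsPC1-R and SDHAF4 fell in BxPC3-R (-0.47). Of the 18 on the list for complex IV, TACO1, a translational activator of mitochondrial COX1 (0.66), SURF1 and COX11 rose in AsPC1-R. FASTKD1 (-0.57), COX20 (-0.41) and COX10 fell there. FASTKD1 was counted on this list but is not known as an assembly factor of complex IV. In BxPC3-R, COA3 (-0.71) and COA5 (-0.57) fell and COA7 rose (0.63). Of the 3 genes for assembly of complex V, ATPAF1 rose in BxPC3-R (0.41, adjusted p 0.00328).

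Of 15 regulators of mitochondrial gene expression, 2 rose and 2 fell in AsPC1-R and 1 rose in BxPC3-R. PPARGC1A, the coactivator PGC-1alpha, read 5.27, 4.96 and 4.89 in AsPC1 and 5.92, 6.19 and 5.85 in AsPC1-R, a rise without overlap (adjusted p 9.79e-05). All of these readings lay under the 6.22 of CDKN2A in BxPC3, so no size is given for it. TFB2M, a mitochondrial transcription factor, fell in AsPC1-R (-0.48, adjusted p 0.00107), and POLG rose there (0.36, adjusted p 0.0202). NRF1, GABPA, ESRRA and TFAM did not pass in either derivative. GABPB1, the partner of GABPA, fell in AsPC1-R (-0.26, adjusted p 0.0413) and rose in BxPC3-R (0.28, adjusted p 0.0272).

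Citrate synthase and the phosphate carrier moved like NDUFA12 and lie on the same chromosome as it. CS fell in AsPC1-R (-0.33, adjusted p 0.013) and rose in BxPC3-R (0.27, adjusted p 0.0397). The rise of CS lost its call without BxPC3 replicate 2 (adjusted p 0.0707). SLC25A3, which imports the phosphate used by the ATP synthase, read 12.19, 12.20 and 12.22 in AsPC1 and 11.92, 11.95 and 11.92 in AsPC1-R (-0.27, adjusted p 0.00987). In BxPC3 it read 11.65, 11.71 and 11.68 and in BxPC3-R 12.04, 12.04 and 12.05, a rise of 0.36 (adjusted p 0.00136), so that neither pair of groups overlapped. Among the other tricarboxylic acid cycle genes, SUCLG2 fell in both derivatives (-0.68 and -0.36), IDH3A (0.52) and OGDH (0.44) rose in AsPC1-R, and PDHB fell in BxPC3-R (-0.56). The BxPC3-R calls of SUCLG2 (adjusted p 0.075) and PDHB (adjusted p 0.0503) were lost without BxPC3 replicate 2. UCP2, an inner-membrane carrier, fell in BxPC3-R by 0.85 (adjusted p 0.000177), and TOMM40, the pore of the outer membrane, rose there by 0.55. TOMM20 fell in AsPC1-R (-0.38, adjusted p 0.018).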

How the data were processed

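Each array holds amplified, labelled total RNA of 1 sample. The authors deposited log2 levels per probe set, made with Affymetrix Expression Console and RMA, per the submitters' processing notes. RMA corrects background and quantile-normalizes the arrays, so real shifts common to all genes are removed and fold changes are compressed at low levels. Software versions and genome build: not given in the sources used here. Each of the 12 columns was matched to a sample by its label. Array medians ran from 6.48 to 6.65. The arrays carry no depth, and their number limits the precision.

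Of 33297 probe sets, 19460 had 1 symbol, 1754 several and 12083 were not listed in the probe table. The fit across the 18417 genes used limma 3.58.1 under R 4.3.3 (lmFit and eBayes, all 12 arrays, 4 group means, 8 residual and 5.47 prior degrees of freedom) with 5 contrasts, two-sided, with Benjamini-Hochberg adjustment, and the fit was tested on simulated data. A value called SE is limma's standard error. In the brightest-probe-set choice 7 of the 81 genes had more than 1 probe set, which could also read pseudogenes. Genes were named from up to 12 called genes per direction and contrast, not all of which are given, and from the largest change per complex. Also named were genes called in both derivatives or for the difference between the lines, isoform pairs and listed regulators. Up to 3 called genes were named per list of other pathway genes. Others named were chosen after their values were seen. Members and lists were chosen with earlier results of these data known. All 81 genes were found in RefSeq (GRCh38.p14) by gene number, which gave chromosomes, neighbours and promoters. Alternatives were a replicate block, dim genes left out, arrays centred on their medians, a further quantile normalization, eBayes with trend and robust settings, a fit on only the groups compared, probe sets of a gene averaged, weights per array, and each array left out.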

Additional observations from a re-analysis of the deposited data

Results flagged for a closer look

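The change in AsPC1-R minus that in BxPC3-R differed from 0 by limma's interaction contrast (adjusted p under 0.05 over all genes) in 16 subunit genes, each given here with that log2 difference. In complex I it was 0.96 for NDUFB3, 0.86 for NDUFB5, 0.77 for NDUFA13, 0.76 for NDUFA2, 0.70 for NDUFA8, 0.62 for NDUFA1, 0.47 for NDUFV2 and -1.19 for NDUFA12. In complex III it was 1.03 for UQCR11 and 0.44 for UQCR10. In complex IV it was 0.77 for COX7A2L, 0.69 for COX6C and 0.39 for COX8A. In complex V it was 0.57 for ATP5MC1, 0.56 for ATP5MK and -0.37 for ATP5F1B. Calls were kept in every alternative tried for 8 of them: ATP5MC1, COX7A2L, NDUFA1, NDUFA12, NDUFA2, NDUFB3, NDUFB5 and UQCR11. NDUFV2 lost its call in 12 alternatives and UQCR10 in 10. Those of NDUFA13, COX6C and COX8A were lost when any of 7 arrays was left out, those of NDUFA8 and ATP5MK when any of 3 was, and that of ATP5F1B after a further quantile normalization.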

How the results depend on the processing

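No called change reversed its sign in the alternatives tried. In AsPC1-R, where 2 genes rose and 3 fell, the counts were 4 (5.48%) and 5 (6.85%) with dim genes left out, beside 18.4% and 13.4% of all genes in that fit. They were 4 (4.94%) and 5 (6.17%) after a further quantile normalization, beside 11.9% and 9.09%. With trend and robust settings they were 5 (6.17%) and 6 (7.41%), beside 12.7% and 9.42%. The number that fell there was 1 (1.23%) with arrays centred on their medians and 1 with only the groups compared, beside 6.66% and 5.84% of all genes. It was 10 (12.3%, beside 10.3%) with array weights. In BxPC3-R, where 1 rose and 14 fell, 3 rose (3.7%, beside 10.7% of all genes) and 19 fell (23.5%, beside 11.9%) with trend and robust settings. The number that fell was 18 (24.7%, beside 16.7%) with dim genes left out and 19 (23.5%, beside 10.9%) after a further quantile normalization. It was 20 (24.7%, beside 11.8%) with only the groups compared. With arrays centred it was 10 (12.3%, beside 9.68%), and with probe sets averaged 13 (16.0%, beside 11.1%). With array weights 4 rose (4.94%, beside 17.8%) and 26 fell (32.1%, beside 16.7%). The difference between the lines was below 0 in 4 genes (4.94%, beside 12.1% of all genes) with trend and robust settings and in 6 (7.41%, beside 18.1%) with array weights. With the replicate number as a block the counts were 2 higher and 3 lower in AsPC1-R, 1 and 14 in BxPC3-R, 13 and 3 for the difference, 22 and 12 between the parents and 31 and 6 between the derivatives. In that order these are 2.47% and 3.7%, 1.23% and 17.3%, 16.0% and 3.7%, 27.2% and 14.8%, and 38.3% and 7.41%. All genes gave 11.2% and 8.06%, 9.2% and 10.7%, 13.7% and 10.8%, 27.3% and 22.6%, and 21.0% and 21.6%. The deviations of same-numbered samples from their group means correlated at -0.239 to 0.34 over 18 pairs, with 3 over 0.1. They ran from 0.09 to 0.34 between AsPC1 and BxPC3-R and from -0.24 to -0.03 between AsPC1 and AsPC1-R. With 3 arrays per group these values cannot settle whether the number pairs the samples. Leaving out 1 array at a time gave 2 to 9 higher and 1 to 5 lower genes in AsPC1-R, 1 higher and 5 to 19 lower in BxPC3-R, 7 to 17 higher and 2 to 4 lower for the difference, 18 to 25 higher and 9 to 14 lower between the parents, and 27 to 33 higher and 3 to 6 lower between the derivatives. Calls were kept in every alternative for 3 of 5 genes in AsPC1-R, 5 of 15 in BxPC3-R, 24 of 35 between the parents and 29 of 37 between the derivatives. The causes were not tested. Low signals, 8 genes under the median of all values, and 3 arrays per group limit what could be called.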
